A study of Mus musculus with 6 samples.

Results

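Serum amyloid A, the pentraxins and lipocalin 2 are secreted proteins of the acute phase response, and 7 genes for them were looked up on the arrays: *Saa1*, *Saa2*, *Saa3*, *Saa4*, *Apcs*, *Crp* and *Lcn2*. A probe set, the group of short oligonucleotides that reads a transcript, was taken where the platform annotation gave one of these symbols alone. This found 8 probe sets for 6 of the genes, of 12422 probe sets tested, with 2 each for *Saa2* and *Lcn2* and 1 each for *Saa3*, *Saa4*, *Apcs* and *Crp*. *Saa1* had none. Liver RNA of 3 LIRKO and 3 Flox samples was read on arrays of the type Affymetrix MG-U74A-v2, with 1 array a sample and RNA of 2 to 3 mice pooled on each. LIRKO mice (IR flox/flox albumin:CRE +) lack the insulin receptor where Cre recombinase, driven by the albumin promoter and so active in hepatocytes, cuts the floxed alleles, and Flox controls (IR flox/flox albumin:CRE -) are littermates with the same alleles and no Cre. All mice were male, on a mixed background of several strains, among them C57BL/6, FVB and DBA, aged 2 to 3 months by the labels, fed chow and not fasted. Values are the deposited robust multichip averages (RMA) on the log2 scale, so that a difference of 1 is a doubling, and p-values measure the spread between pools.

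In inflammation, cytokines of the interleukin-6 and interleukin-1 families act on hepatocytes, where the transcription factors STAT3, NF-kB and C/EBP raise the transcription of acute phase genes. Serum amyloid A proteins travel in plasma on high-density lipoprotein, the pentraxins bind microbial and nuclear debris and can engage complement, and lipocalin 2 withholds iron from bacteria by binding their siderophores. In mice, serum amyloid P, the product of *Apcs*, is the pentraxin that rises in inflammation, whereas C-reactive protein changes little, and *Saa4* is the serum amyloid A gene known for constitutive expression.

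Over all probe sets, 9 were higher and 7 lower in LIRKO liver by limma (adjusted p under 0.05), with a median log2 fold change of 0.01. The *Insr* probe set read 5.37, 5.99 and 6.06 on LIRKO 1 to LIRKO 3 and 5.45, 5.22 and 5.38 on Flox 1 to Flox 3 (limma, adjusted p = 0.245). It is not known if its probes match the deleted sequence. LIRKO 2 and LIRKO 3 stood apart. The 10% of probe sets brightest in Flox, which hold 7 of the 8 probe sets of these genes, had a median difference from Flox of -1.09 on LIRKO 2 and -0.89 on LIRKO 3, but -0.01 on LIRKO 1. The readings of these 8 probe sets are therefore given for LIRKO 1 alone as well, and those of other genes in part. Among hepatocyte markers, *Ttr* (transthyretin) read at least 8.78 and *Apoa1* (apolipoprotein A-I) at least 13.2 on every array. Of 7 such markers measured, none passed and 6 had a log2 fold change below 0. Their median was -0.54 over the LIRKO arrays and 0.14 on LIRKO 1, and *Ttr* was lowest, at -1.88.

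The bases before the start of transcription are shown for *Saa2*, *Lcn2* and *Apcs*, the genes that passed the test, and for *Crp*, which did not, since the responses of these genes are set largely through such sequences. They are the 250 bases before the RefSeq start, on the gene's strand in GRCm38.p6, with matches in capitals to TTGCNNAA, a short form of the C/EBP motif, or to TTCNNNGAA, that of STAT3, on either strand.
Saa2 (chr7:46751583-46751832, plus strand): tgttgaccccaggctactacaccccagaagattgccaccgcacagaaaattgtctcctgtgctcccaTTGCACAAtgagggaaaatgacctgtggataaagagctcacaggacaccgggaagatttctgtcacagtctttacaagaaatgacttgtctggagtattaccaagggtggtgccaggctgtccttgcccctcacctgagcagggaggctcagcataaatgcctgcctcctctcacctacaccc
Lcn2 (chr2:32387740-32387989, minus strand): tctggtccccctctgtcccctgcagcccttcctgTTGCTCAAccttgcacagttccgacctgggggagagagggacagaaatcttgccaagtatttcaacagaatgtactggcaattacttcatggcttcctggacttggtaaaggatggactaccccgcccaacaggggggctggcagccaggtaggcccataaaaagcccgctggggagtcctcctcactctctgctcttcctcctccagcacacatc
Apcs (chr1:172895055-172895304, minus strand): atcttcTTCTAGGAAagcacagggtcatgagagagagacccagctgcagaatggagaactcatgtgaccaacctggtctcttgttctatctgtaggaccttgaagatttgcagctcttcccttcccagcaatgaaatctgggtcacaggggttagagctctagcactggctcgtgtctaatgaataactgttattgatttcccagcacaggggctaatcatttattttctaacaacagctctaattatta
Crp (chr1:172697806-172698055, plus strand): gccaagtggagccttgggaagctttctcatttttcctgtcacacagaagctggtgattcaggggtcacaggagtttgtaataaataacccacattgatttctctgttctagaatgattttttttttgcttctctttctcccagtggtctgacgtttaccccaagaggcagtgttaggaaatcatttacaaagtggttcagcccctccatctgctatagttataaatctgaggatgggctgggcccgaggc
The TTGCNNAA match of *Saa2* lies 183 to 176 bases before the start and that of *Lcn2* 216 to 209 bases before it. The match of *Apcs*, to TTCNNNGAA, lies 244 to 236 bases before the start, and *Crp* has no match to either. Of 32851 such windows in the table, 9.56% hold TTGCNNAA and 7.02% hold TTCNNNGAA, while the NF-kB consensus, in 3.90% of them, has no match in the windows of the 7 genes. Windows of *Saa1* and *Saa3* hold 1 match to TTGCNNAA each and that of *Saa4* holds 2. The *Saa1* and *Saa2* windows are 94.8% identical over 251 aligned columns, with 11 mismatches and 2 gaps, and other pairs of the 7 genes share 45.5% to 53.5%. A match is a description of the letters and not of a bound site.

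*Saa2* fell in LIRKO liver on both of its probe sets. On 103465_f_at it read 8.88, 8.52 and 9.08 on LIRKO 1 to LIRKO 3 and 13.63, 13.22 and 12.96 on Flox 1 to Flox 3. This is the brightest of the 8 probe sets, at percentile 99.8 of all probe sets in Flox, and the groups lay far apart. In RNA of whole liver, fewer cells of a type and less RNA per cell cannot be told apart. Its log2 fold change of -4.45 (standard error 0.22; limma, adjusted p = 0.00145) is a ratio of LIRKO over Flox of 0.0459. On 100333_at it read 6.75, 7.06 and 7.48 on LIRKO 1 to LIRKO 3 and 10.84, 10.12 and 9.74 on Flox 1 to Flox 3. The groups did not overlap here either, and the log2 fold change of -3.14 had a standard error of 0.31 (limma, adjusted p = 0.0384). Of the 8 probe sets, 4 were lower at this threshold, 2 of them of *Saa2*, against 0.0564% of all probe sets. The genes were chosen with earlier results of these data known, so that this contrast is a description only. Bonferroni adjustment kept the call on 103465_f_at alone of these 4 (adjusted p = 0.0029 from limma), and the methods' t-test with Benjamini-Hochberg adjustment kept none. The call on 103465_f_at held when any single array was left out, whereas that on 100333_at was lost without LIRKO 2, LIRKO 3, Flox 1, Flox 2 or Flox 3 (adjusted p from 0.0833 to 0.251 in limma), with a log2 fold change from -3.38 to -2.83.

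The suffix _f_at marks a probe set whose probes may also match other members of a family, so that transcripts of *Saa1*, whose upstream sequence is nearly that of *Saa2*, may be read by it. *Saa1*, *Saa2*, *Saa3* and *Saa4* lie together on chromosome 7, with *Saa1* at chr7:46740497-46743181 and *Saa2* at chr7:46751833-46754313 in GRCm38.p6. Between them and *Saa4* lies a pseudogene, *Saa-ps*, which is no member of the group but has a probe set, 101306_f_at. It read 5.54, 5.67 and 5.11 on LIRKO 1 to LIRKO 3 and 7.91, 6.87 and 6.48 on Flox 1 to Flox 3, with a log2 fold change of -1.65 (adjusted p = 0.237 from limma, and adjusted p = 0.00358 without LIRKO 1). Without LIRKO 1, 26.7% of all probe sets passed as lower. How far 101306_f_at reads transcripts of its neighbours was not tested.

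*Saa3*, the serum amyloid A gene that macrophages and adipocytes express beside hepatocytes, read 7.06, 6.93 and 7.18 on LIRKO 1 to LIRKO 3 and 11.95, 9.23 and 9.28 on Flox 1 to Flox 3. The LIRKO arrays were close to each other and below all Flox arrays, and Flox 1 lay well above the other Flox arrays. The log2 fold change of -3.10 (standard error 0.70) did not pass (adjusted p = 0.237 from limma). Without Flox 1 it was smaller, at -2.20, and passed (adjusted p = 0.0270 from limma), and it also passed without LIRKO 1, at -3.10 (adjusted p = 0.00451 from limma). Without LIRKO 1, 79.4% of the brightest 10%, where *Saa3* lies, passed as lower too.

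*Saa4* read 8.81, 6.91 and 7.14 on LIRKO 1 to LIRKO 3 and 9.89, 9.62 and 9.80 on Flox 1 to Flox 3. The Flox arrays were close to each other, and LIRKO 1 lay nearer to them than LIRKO 2 and LIRKO 3. Over the 3 LIRKO arrays the log2 fold change of -2.15 (standard error 0.47) did not pass (limma, adjusted p = 0.237), and LIRKO 1 by itself was at -0.96. With LIRKO 1 left out it passed, at -2.74 (limma, adjusted p = 2.4e-06), as did 26.7% of all probe sets as lower and 22.4% as higher, and 79.4% of the brightest 10% as lower.

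**Figure D1:**
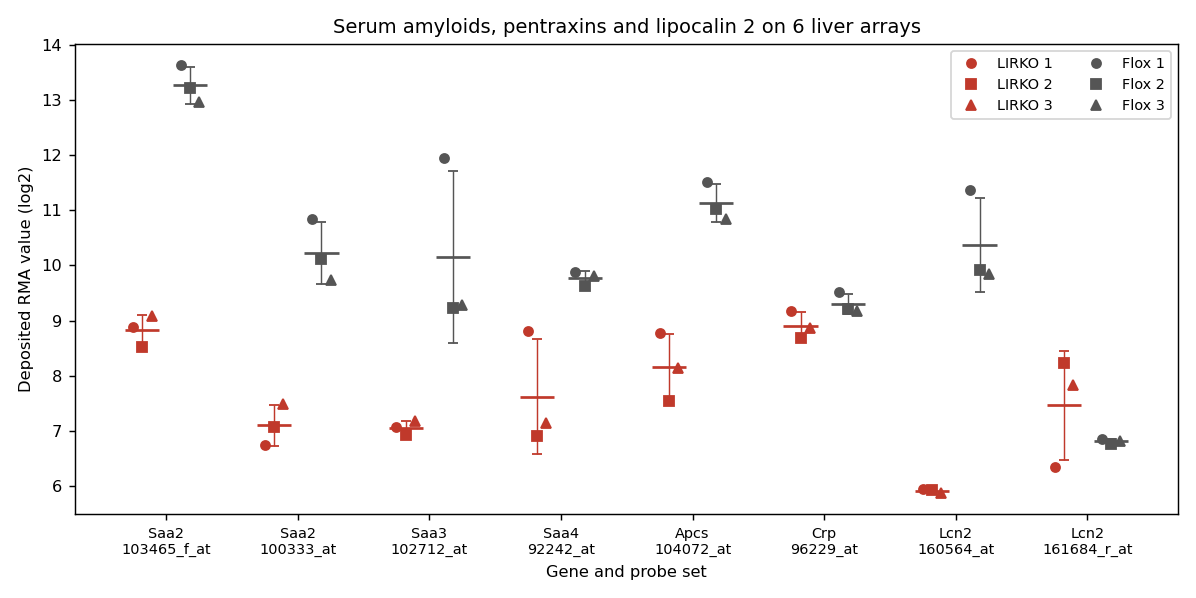
Deposited RMA value (log2, vertical axis) of the 8 probe sets on each of 6 arrays; red symbols are LIRKO, grey symbols are Flox, horizontal lines are means and error bars are SD of 3 arrays. The LIRKO and Flox arrays do not overlap for *Saa2*, *Saa3*, *Saa4*, *Apcs* and *Lcn2* on 160564_at, and they overlap for *Crp* and for *Lcn2* on 161684_r_at.

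Of the pentraxins, *Apcs* passed the test and *Crp* did not. *Apcs*, which encodes serum amyloid P, fell in LIRKO liver, reading 8.77, 7.54 and 8.14 on LIRKO 1 to LIRKO 3 and 11.51, 11.02 and 10.85 on Flox 1 to Flox 3. The lowest Flox array lay more than 2 above the highest LIRKO array. Expression changed by -2.98 on the log2 scale (standard error 0.33; limma, adjusted p = 0.0403), a ratio of 0.127. The call was lost without LIRKO 2, LIRKO 3, Flox 1, Flox 2 or Flox 3 (adjusted p from 0.0829 to 0.319 in limma), with a log2 fold change from -3.11 to -2.67.

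*Crp*, which encodes C-reactive protein, lies near *Apcs* on chromosome 1, at chr1:172698056-172699966 against chr1:172893961-172895054 in GRCm38.p6. It read 9.18, 8.68 and 8.87 on LIRKO 1 to LIRKO 3 and 9.52, 9.21 and 9.18 on Flox 1 to Flox 3. LIRKO 1 was as high as Flox 3, the lowest Flox array. For *Crp* the log2 fold change was -0.39 (95% interval -0.80 to 0.02, adjusted p = 0.243 from limma), and it was -0.12 on LIRKO 1 and 0.0130 after cyclic loess normalization. It passed without LIRKO 1 (-0.53, adjusted p = 0.0114 from limma), as did 79.4% of the brightest 10% as lower. On LIRKO 2 and LIRKO 3 it was at -0.62 and -0.43. The medians of the brightest 10% were lower, at -1.09 and -0.89, but *Crp* lies near the lower edge of that group, at percentile 90.9 in Flox. The next 10% by Flox mean had medians of -0.47 and -0.38 on these arrays.

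The difference between 2 genes of a family on the same array was compared between groups, a comparison chosen after the values were seen. *Apcs* minus *Crp* was -0.42, -1.13 and -0.73 on LIRKO 1 to LIRKO 3 and 1.99, 1.81 and 1.67 on Flox 1 to Flox 3, a change of -2.58. *Saa2* on 103465_f_at minus *Saa4* was 0.07, 1.60 and 1.94 on LIRKO 1 to LIRKO 3 and 3.74, 3.59 and 3.16 on Flox 1 to Flox 3, a change of -2.30. In both the groups did not overlap, and a two-sided exact permutation test gave p = 0.1, the smallest that 3 against 3 arrays allow, for each of these 2 comparisons (0.1 after Benjamini-Hochberg adjustment too).

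*Lcn2* had the lowest log2 fold change of all 12422 probe sets, on 160564_at. It read 5.94, 5.93 and 5.87 on LIRKO 1 to LIRKO 3 and 11.36, 9.92 and 9.85 on Flox 1 to Flox 3. The LIRKO arrays were nearly equal, with an SD of 0.0384 against 0.853 in Flox, and their mean lay at percentile 35.3 of all probe sets. This gave a log2 fold change of -4.46 (standard error 0.39; limma, adjusted p = 0.0257), a ratio of 0.0453. The deposited values hold no detection call, so that how much of the LIRKO reading is background is unknown and the size of the fall is less certain than its direction. The call was lost without LIRKO 2, LIRKO 3, Flox 2 or Flox 3 (adjusted p from 0.0887 to 0.263 in limma), with a log2 fold change from -4.73 to -4.44.

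The other *Lcn2* probe set, 161684_r_at, did not follow. It read 6.34, 8.23 and 7.82 on LIRKO 1 to LIRKO 3 and 6.85, 6.77 and 6.81 on Flox 1 to Flox 3. LIRKO 1 was below and LIRKO 2 and LIRKO 3 were above all Flox arrays. Its log2 fold change was 0.66 (standard error 0.45; limma, adjusted p = 0.377). It was -0.47 on LIRKO 1, and without LIRKO 1 it passed as higher (1.22, adjusted p = 0.000106 from limma), as did 22.4% of all probe sets. The suffix _r_at marks probe sets for which the array maker's rules for choosing probes were relaxed. The 901 probe sets of this suffix had a median difference of -0.04 on LIRKO 1, 0.41 on LIRKO 2 and 0.38 on LIRKO 3, and 74.3% of them were above Flox on both LIRKO 2 and LIRKO 3, against 39.4% of 10446 probe sets with neither this suffix nor _f_at. The part of this in the *Lcn2* reading was not tested.

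On LIRKO 1, where bright probe sets lay level with Flox, the differences were about as large as on the other arrays for *Lcn2*, *Saa2* and *Saa3*. The difference from Flox for *Lcn2* on 160564_at was -4.44, -4.45 and -4.51 on LIRKO 1 to LIRKO 3. How much of these *Lcn2* readings is background is unknown, and readings at a floor would give equal differences on all arrays. For *Saa2* on 103465_f_at the difference was -4.39, -4.75 and -4.19, and for *Saa3* it was -3.09, -3.23 and -2.97. *Apcs* and *Saa4* were nearer to Flox on LIRKO 1, at -2.36, -3.58 and -2.99 for *Apcs* and at -0.96, -2.86 and -2.63 for *Saa4* over the same arrays. Over all 12422 probe sets, the lowest differences on LIRKO 1 were those of *Lcn2* on 160564_at, *Saa2* on 103465_f_at, *Saa2* on 100333_at and *Saa3*, in this order, with *Apcs* at rank 6 and *Saa4* at rank 35.

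**Figure D2:**
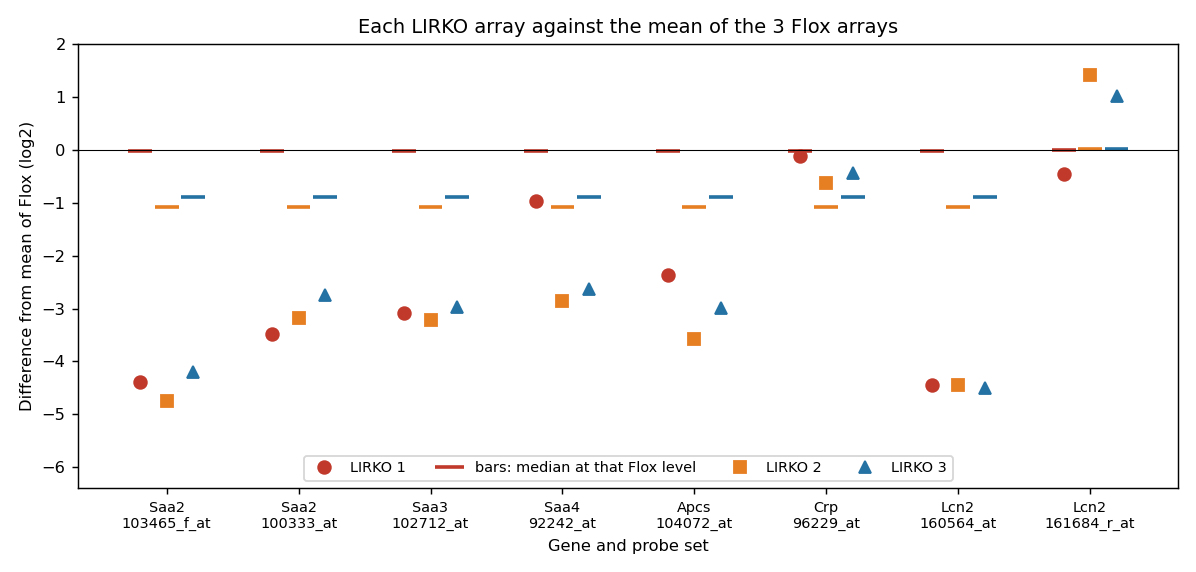
Values of the 8 probe sets relative to the Flox mean (log2, vertical axis). Each symbol is 1 LIRKO array, and the bar of the same colour is a median on that array. It is taken over the group that holds the probe set, of 10 equal groups by Flox mean. These groups are fixed and not centred on the level of each probe set. The bars lie at -0.01 for LIRKO 1 and at -1.09 and -0.89 for LIRKO 2 and LIRKO 3 in all columns but that of 161684_r_at, and the LIRKO 1 symbols of *Saa2*, *Saa3* and *Lcn2* on 160564_at lie between -4.44 and -3.09.

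LIRKO 1 alone was also tested against Flox, with the spread taken from the Flox arrays, as if a single LIRKO pool varied like them. Of the 8 probe sets, 5 were lower (adjusted p under 0.05 in limma), against 0.282% of all probe sets, and these were both of *Saa2* (adjusted p = 4.36e-05 and 0.00251), *Apcs* (0.00251), *Lcn2* on 160564_at (0.00562) and *Saa4* (0.0195). *Saa3* did not pass (adjusted p = 0.231), with its spread in Flox. LIRKO 1 lay below all Flox arrays at 7 of the 8 probe sets, all but that of *Crp*, against 30.9% of all probe sets. All 3 LIRKO arrays lay below all Flox arrays at 6 of 8, against 14.9%. Of the 8, 7 lie in the brightest 10%. There 43.2% of probe sets were lower at an unadjusted p under 0.05 in limma, against 13.5% of all. The share of 14.9% is thus a low background for this count. The same Flox arrays stand in these comparisons and in that of all arrays, so that they are no independent check of one another. That the genes were chosen with earlier results known limits these counts too.

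**Figure D3:**
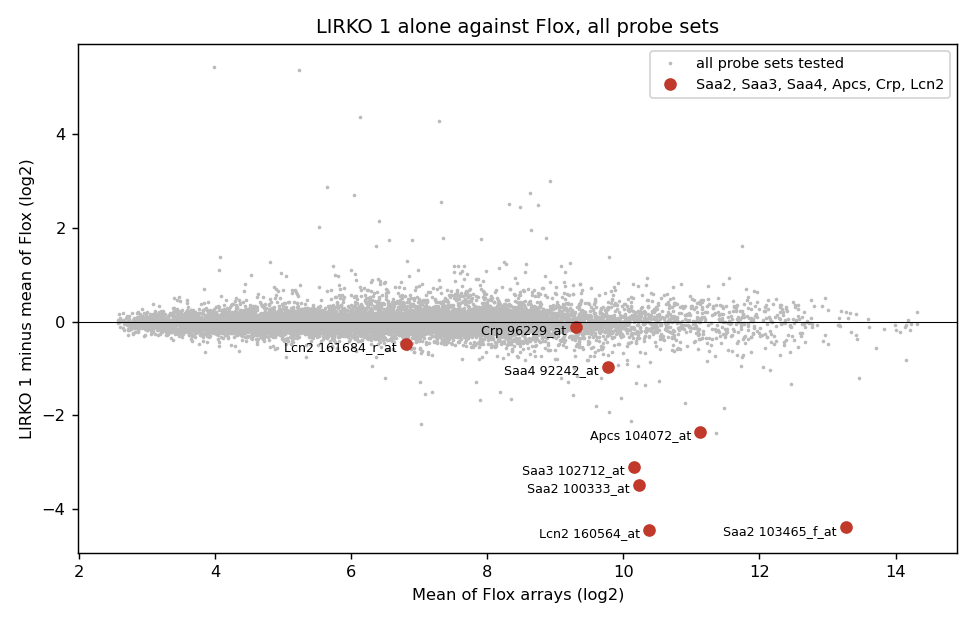
LIRKO 1 minus the Flox mean (log2, vertical axis) against the Flox mean (log2, horizontal axis) for 12422 probe sets; red points are the 8 probe sets of these genes and grey points are all others. The points of *Lcn2* on 160564_at and *Saa2* on 103465_f_at lie lowest, at -4.44 and -4.39, and that of *Crp* lies at -0.12.

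The Flox pools differed among themselves at the same genes. On Flox 1 *Saa3* read 2.69 above the mean of Flox 2 and Flox 3, the largest such difference of all 12422 probe sets, and *Lcn2* on 160564_at read 1.48 above it, the third largest. For *Saa2* this was 0.54 on 103465_f_at and 0.91 on 100333_at, for *Apcs* 0.58, for *Crp* 0.33 and for *Saa4* 0.18, while the median over all probe sets was -0.02. Flox 1 was the highest Flox array at all 8 probe sets, by 0.06 at *Lcn2* on 161684_r_at. Without Flox 1, 3 of the 8 probe sets were lower: *Saa2* on 103465_f_at, *Saa3* and *Lcn2* on 160564_at. Over all 12422 probe sets, 3 were lower and 2 higher in that fit.

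Medians of other acute phase genes lay nearer to 0. Of 35 genes listed for plasma proteins and other genes that rise in this response, 28 were measured, each read by its brightest probe set. None passed in limma over all probe sets, while 19 were lower and 2 higher at an unadjusted p under 0.05, against 13.5% and 7.43% of all probe sets. Of the 28, 22 lay in the brightest 10%, of which 43.2% were lower and 4.02% higher at this p. Their median log2 fold change was -0.85, with medians of -0.28 on LIRKO 1, -1.15 on LIRKO 2 and -1.18 on LIRKO 3, against -3.04, -2.73, -3.20 and -2.86 over the 8 probe sets above. The nearest to passing was *Il1rn*, which encodes the antagonist of the interleukin-1 receptor, at 1.16 (adjusted p = 0.0643), and it was at 1.19 on LIRKO 1, where it passed (adjusted p = 0.0118 for LIRKO 1 alone). *Orm2*, which encodes an orosomucoid, averaged 8.79 ± 0.265 in LIRKO and 11.4 ± 0.797 in Flox (SD, n = 3 each), with 12.28 on Flox 1. The difference of -2.57 did not pass (limma, adjusted p = 0.123). *Orm1* and *Hp*, the haptoglobin gene, had log2 fold changes of -2.16 and -1.97 (adjusted p = 0.237 for both in limma), with -0.97 and -0.81 on LIRKO 1. Without LIRKO 1, 22 of the 28 were lower and 3 higher, against 26.7% and 22.4% of all probe sets, and 79.4% of the brightest 10% were lower there.

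Over the 3 LIRKO arrays, none of the genes in the other lists passed either. Of 15 genes whose products fall in the response, 11 were measured, with a median of -0.70 and of -0.04 on LIRKO 1. At an unadjusted p under 0.05, 5 were lower, among them *Ttr* (transthyretin), *Ambp* (bikunin), *Igf1* and *Apoh* (beta-2-glycoprotein I), at -1.88, -1.51, -1.91 and -1.18. On LIRKO 1 these named genes were nearer to Flox, at -0.61, -0.48, -0.31 and -0.05. All 11 lay in the brightest 10%, where 43.2% of probe sets were lower at this p, so that 5 of 11 is near the background. On LIRKO 1 alone *Serpina6*, the gene of corticosteroid-binding globulin, passed as higher (0.92; limma, adjusted p = 0.012). It is named after its values were seen, was at 0.02 over the 3 LIRKO arrays, and passed as lower without LIRKO 1 (-0.43, adjusted p = 0.025 from limma), as did 79.4% of the brightest 10%. Of 18 inflammatory cytokines and their receptors, chiefly of the interleukin-6 and interleukin-1 families, 14 were measured, with a median of 0.06. *Lifr*, the receptor of leukaemia inhibitory factor, was at -1.62 (-0.02 on LIRKO 1), *Tnfrsf1a* at -0.35 (0.01 on LIRKO 1), *Ifng* at -0.19 and *Osmr* at 0.23. Of 24 genes of the transcription factors and their feedback, 22 were measured, with a median of -0.19 and of 0.00 on LIRKO 1. At an unadjusted p under 0.05, 1 was lower and 2 were higher, against 13.5% and 7.43% of all probe sets. *Cebpa* was lower (-1.16, but -0.33 on LIRKO 1) and lies in the brightest 10%, where 43.2% were lower at this p. *Socs2*, a STAT5 target that limits growth hormone signalling, and *Maz* were higher (1.15 and 0.49, with *Maz* at 0.09 on LIRKO 1). *Ikbkb* was next at -0.43 (-0.07 on LIRKO 1), with adjusted p from 0.237 to 0.252 for these 4 in limma. *Socs2* passed on LIRKO 1 alone (1.74; limma, adjusted p = 0.0271). Of 19 receptors and partners of the proteins, 16 were measured. At an unadjusted p under 0.05 none differed, and those nearest to it were *Cd14* (0.45), *Slc22a17*, which encodes a lipocalin 2 receptor (0.58), *Apoa1* (-0.54, but 0.03 on LIRKO 1, 0.65 with cyclic loess and 0.0359 with renewed quantile normalization) and *Mmp9*, whose product binds lipocalin 2 (0.40).

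**Figure D4:**
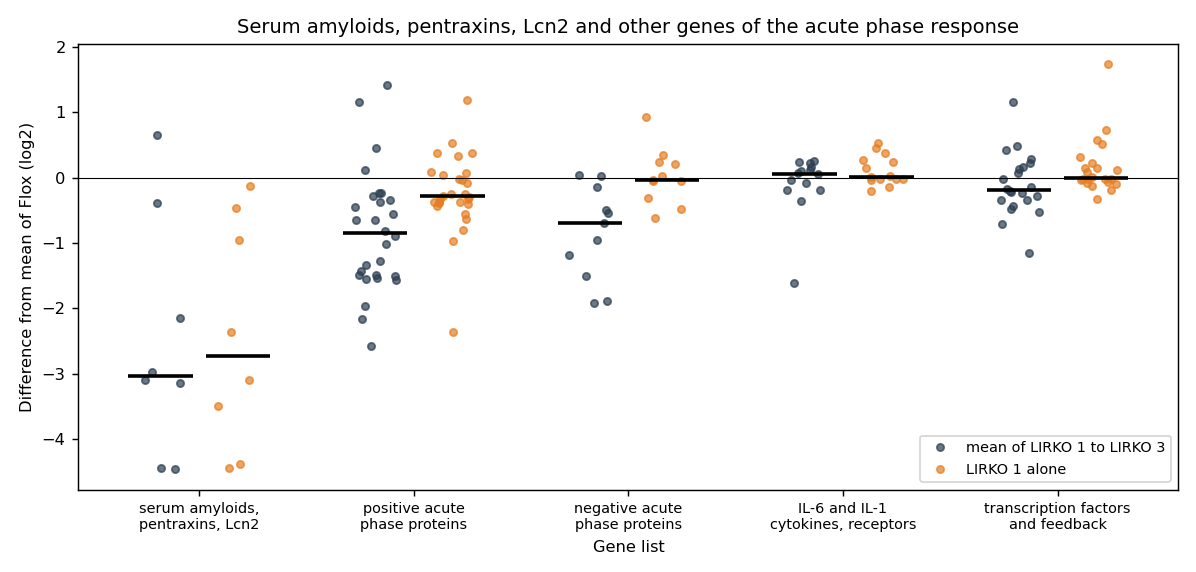
Values relative to the Flox mean (log2, vertical axis) of the 8 probe sets and of the measured genes in 4 lists; dark points average LIRKO 1 to LIRKO 3, orange points show LIRKO 1, and black bars mark the median of each column. The medians of the 8 probe sets lie at -3.04 and -2.73, and those of acute phase proteins that rise in the response at -0.85 and -0.28.

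Neutrophils, which store lipocalin 2 in granules, and Kupffer cells could hold some of this RNA. All 12 neutrophil markers listed were measured and none passed, with log2 fold changes from -0.47 to 0.72. Their summed signal, after values were turned back from the log2 scale, was 1238 to 1461 on the LIRKO arrays and 1274 to 1450.4 on the Flox arrays. Of 12 Kupffer cell markers 9 were measured, with sums of 1295 to 3021 in LIRKO and 1616 to 2723 in Flox, and Flox 1 had a median of -0.79 relative to Flox 2 and Flox 3 at these markers. Of 12 markers of endothelial and stellate cells 10 were measured, with sums of 1384 to 3572 in LIRKO and 1349 to 1639 in Flox. Among them the *Reln* probe set, whose name ends in _r_at, read 7.89, 11.14 and 10.64 on LIRKO 1 to LIRKO 3 and 7.76, 8.15 and 7.86 on Flox 1 to Flox 3. In these 3 lists no gene passed in limma, and at an unadjusted p under 0.05 the neutrophil list and the endothelial and stellate list had 1 lower and 1 higher gene each. Of 9 hepatocyte markers 7 were measured, with sums of 40262 to 63802 in LIRKO and 57574 to 60716 in Flox, and the part of any of these in the values above was not tested. RMA gives no value of 0, so that none of these markers can be called absent.

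The genes with a pattern most like that of *Lcn2* on 160564_at over the 6 arrays, by the smallest root mean square difference after each probe set was centred, were *Orm2* (0.95), *Idi1* (0.96), *Fdps* (1.04), *Msmo1* (1.13) and *Nsdhl* (1.13). The last 4 encode enzymes of cholesterol synthesis. Those most like *Saa2* on 103465_f_at were *Idi1* (0.83), *Fdps* (0.98), *Orm2* (1.02), *Hmgcs1* (1.05) and *Nsdhl* (1.06). The measure is mostly the difference between the groups, and the arrays within a group set these genes apart. *Orm2* was on Flox 1 by 1.38 above Flox 2 and Flox 3, as *Lcn2* was by 1.48, whereas this was 0.03 for *Idi1*. The differences on LIRKO 1, LIRKO 2 and LIRKO 3 were -2.36, -2.49 and -2.87 for *Orm2*, and -2.11, -4.03 and -3.71 for *Idi1*.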

How the data were processed

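Raw data of Affymetrix MG-U74A-v2 arrays were processed by the authors in R with affy and limma, and 1 log2 value per probe set and array after RMA was deposited by the authors, for 12488 probe sets and 6 arrays. It is not stated if the authors normalized the 6 arrays in 1 run. Values were taken as deposited, without the 66 array controls and with no filter on dim signals. LIRKO was compared with Flox by lmFit and eBayes of limma 3.58.1 in R 4.3.3, the package named in the methods, with Benjamini-Hochberg adjustment over all 12422 probe sets and a threshold of 0.05. The test was tried on simulated data. Of the probe sets, 10833 carry 1 gene symbol in the platform annotation, and 10817 of these were found by Entrez ID in the RefSeq gene table of GRCm38.p6.

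The genes and lists were chosen with earlier results of these data known. Genes of the lists were read by their brightest probe set, and up to 4 with the smallest p were named in each list other than those of cell type markers. Named beside them were the 5 probe sets most like *Lcn2* and *Saa2*. Levels were compared in 10 equal groups of probe sets by Flox mean. Upstream sequences came from RefSeq (GRCm38.p6), where all 7 genes matched, and were searched and aligned with Python 3.11.15 and Biopython 1.88. That of *Saa1* lies mostly, and that of *Saa3* wholly, inside the annotated span of the gene, and these were not printed. Proteins were not analysed here. The number of arrays limits the precision. Alternatives were 3 normalizations between arrays, a filter that left out the dimmest 25%, another variance model, Bonferroni adjustment, the methods' t-test with unequal variances, replicate number as a block, averaging over probe sets of a gene, leaving out each array, and LIRKO 1 alone.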

Additional observations from a re-analysis of the deposited data

Results flagged for a closer look

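Probe sets for bacterial and phage control transcripts, which are spiked in at hybridization and enter no comparison above, read higher on LIRKO 2 and LIRKO 3 than on the Flox arrays. The median difference from Flox over these 9 probe sets was 1.08 on LIRKO 2 (9 of 9 higher) and 0.962 on LIRKO 3 (8 of 9 higher), against -0.248 on LIRKO 1 and -0.233 to 0.177 on the Flox arrays. These are the arrays on which the brightest probe sets read lower and the _r_at probe set of *Lcn2* read higher. Their part in those values was not tested.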

How the results depend on the processing

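Of the 8 probe sets, 4 passed after renewed quantile normalization, cyclic loess, centring of each array on its median, without dim probe sets and with another variance model. Bonferroni adjustment left 1, *Saa2* on 103465_f_at, and the methods' t-test with Benjamini-Hochberg adjustment left 0, as it did for all probe sets (adjusted p = 0.481 for the 4). At an unadjusted p under 0.05 that test had 4 of the 8 lower, and 422 lower and 306 higher of all probe sets. With the replicate number as a block 3 of the 8 passed, and *Saa2* on 100333_at did not (adjusted p = 0.115 from limma). The correlation of deviations between same-numbered arrays was 0.32, 0.40 and 0.09, and that between other pairs ran from -0.37 to 0.17. LIRKO 3 correlated more with Flox 2 (0.17) than with Flox 3. Whether arrays of the same number were handled together is not known. Leaving out 1 array gave 1 to 8 of the 8, with 3 without Flox 1, and 1 without LIRKO 2, LIRKO 3, Flox 2 or Flox 3. Without LIRKO 1 all 8 passed, 7 as lower and 1, *Lcn2* on 161684_r_at, as higher. In that fit 26.7% of all probe sets passed as lower and 22.4% as higher. Of the group of probe sets brightest in Flox, 79.4% passed as lower there, so that the count of 8 stands on a high background. Leaving out 1 array gave 2 to 6095 of all probe sets and 0 to 25 of the 28 acute phase genes.

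Over all probe sets the count of 16 became 40 after cyclic loess, 2 with Bonferroni adjustment and 90 with LIRKO 1 alone. The count of 0 acute phase genes became 1, *Il1rn*, after renewed quantile normalization, cyclic loess, with another variance model, with LIRKO 1 alone, and after averaging over the probe sets of each gene.

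Of the named values, the log2 fold change of *Crp* was 0.0130 after cyclic loess, and that of *Lcn2* on 161684_r_at was -0.47 on LIRKO 1. *Tnfrsf1a* was at 0.00621 and *Mmp9* at -0.0315 on LIRKO 1, and *Apoa1* was at 0.0359 after renewed quantile normalization, 0.65 after cyclic loess and 0.0320 on LIRKO 1. *Reln* was at -0.0345 on LIRKO 1. None of these values passed the threshold. With single arrays left out, *Serpina6*, at 0.02 over all arrays, ran from -0.43 without LIRKO 1 to 0.34 without LIRKO 2. It passed as lower without LIRKO 1 (adjusted p = 0.025 from limma), and was at 0.92 on LIRKO 1 alone. It passed as higher after cyclic loess (0.85, adjusted p = 0.0403). The cause was not tested. The others kept their direction under every alternative run. Over all alternatives the log2 fold change was -4.60 to -3.70 for *Saa2* on 103465_f_at, -3.49 to -2.83 on 100333_at, -4.73 to -3.97 for *Lcn2* on 160564_at, -3.28 to -2.36 for *Apcs*, -3.56 to -2.20 for *Saa3* and -2.74 to -0.96 for *Saa4*. No deposited value gives signal over background, so that fold changes to a low level, as for *Lcn2*, are limited by an unknown floor.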
